A study of Mus musculus with 2 samples.

Results

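The genes described here are the 7 mouse microRNA (miRNA) genes of a pair of seed families, called here the miR-148 family (Mir148a, Mir148b and Mir152) and the miR-130 family (Mir130a, Mir130b, Mir301 and Mir301b). They were chosen by gene symbol in GENCODE M21 from the 2202 miRNA genes of the deposited tables. All 7 were found, and all 7 had the 10 counts summed over the libraries that the test required. MicroRNA-seq, which sequences short RNAs after adapter ligation, was run on total RNA with a size range under 30 nt from the left cerebral cortex of 4-day-old males of the strain B6CASTF1/J. These are F1 hybrids between C57BL/6J and CAST/EiJ, and the labels name no treatment or other allele. The 2 libraries form 1 group and are labelled biological replicates 1 and 2. The males carry separate numbers in the labels but a single donor identifier, so whether they are separate animals is not settled. The spread between these libraries may be technical, between animals, of tissue content, or any mix of these, which cannot be told apart here.

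A miRNA guides an Argonaute protein to target mRNAs mainly through its seed, bases 2 to 8 counted from its 5′ end, so genes that share a seed are grouped as a family with overlapping targets. The miR-148 family is known for repressing the DNA methyltransferase Dnmt1 and, in liver, the low-density lipoprotein receptor. The miR-130 family is known for repressing Pparg, a regulator of fat cell formation, and for roles in blood vessel growth.

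The mature 3′-arm sequences are shown because the families are defined by them and because the seeds of the families overlap. Capitals mark the seed, and the sequences are from RefSeq on GRCm38.p6, the build also called mm10.
mmu-miR-148a-3p: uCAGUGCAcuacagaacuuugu
mmu-miR-148b-3p: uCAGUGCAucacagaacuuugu
mmu-miR-152-3p: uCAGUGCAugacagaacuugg
mmu-miR-130a-3p: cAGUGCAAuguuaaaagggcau
mmu-miR-130b-3p: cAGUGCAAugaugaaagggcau
mmu-miR-301a-3p: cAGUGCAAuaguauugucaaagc

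The run CAGUGCA stood at bases 2 to 8 of the 3 sequences of the miR-148 family and at bases 1 to 7 of those of the miR-130 family, a shift of 1 base. The seeds themselves share the letters AGUGCA and differ in the letter beside them. Among the 1738 mature miRNAs of the RefSeq table, 3 had the seed CAGUGCA and 7 had AGUGCAA. Mir301b has no mature 3′ arm in that table, so it is not among the sequences above or these 7. Counted from 1 at the 5′ end, miR-148b-3p differed from miR-148a-3p by C9U and U10C, and miR-152-3p differed from miR-148b-3p by C10G and U20G over the 21 bases compared. The miR-130b-3p sequence differed from miR-130a-3p by U11A and A13G, while miR-301a-3p matched miR-130a-3p at 12 of 22 bases. Beyond the members, 4 genes carried the seed AGUGCAA (Mir130c, Mir721, Mir6341 and Mir6389). Each had 0 counts in both libraries, which allows up to 1.00 CPM (counts scaled to the library's own-strand miRNA total) in replicate 1 and 0.838 CPM in replicate 2.

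Mir130b and Mir301b are neighbours, and their hairpins are shown because they are the only members within 10 kb of another miRNA gene. Capitals mark the run CAGUGCAA, found once in each.
Mir130b hairpin: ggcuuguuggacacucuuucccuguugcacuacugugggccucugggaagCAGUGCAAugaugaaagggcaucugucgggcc
Mir301b hairpin: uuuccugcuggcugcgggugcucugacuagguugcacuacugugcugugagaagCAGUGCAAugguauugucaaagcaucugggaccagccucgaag

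On mm10, Mir301b (ENSMUSG00000076288.1) lies on the minus strand of chromosome 16 from 17124400 to 17124496, and Mir130b (ENSMUSG00000065572.1) from 17124061 to 17124142, with 257 bases between them. Both are in an intron of the protein-coding gene 2610318N02Rik, on its strand. Mir148b (ENSMUSG00000065560.1; chromosome 15, 103285125 to 103285221, plus strand) lies in an intron of Copz1. Mir152 (ENSMUSG00000065515.1; chromosome 11, 96850393 to 96850465, plus strand) lies in an intron of Copz2. Copz1 and Copz2 are paralogs that encode the zeta subunit of the coatomer, a coat of transport vesicles. Mir301 (ENSMUSG00000065589.1; chromosome 11, 87113004 to 87113089, plus strand) lies in an intron of Ska2, a gene of the mitotic spindle. Mir148a (ENSMUSG00000065505.1; chromosome 6, 51269812 to 51269910, minus strand) and Mir130a (ENSMUSG00000065484.1; chromosome 2, 84741115 to 84741178, minus strand) overlap no other annotated gene. Thus 5 of 7 members (71.4%) lie in an intron of a protein-coding gene on the same strand, as do 192 of the 463 tested miRNA genes (41.5%).

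The libraries stood apart from each other. Own-strand miRNA counts were 2999032 and 3577964 (29.9% and 52.6% of reads), and 46.1% and 39.8% of reads were placed at more than 1 site. The biological coefficient of variation between the libraries, as edgeR estimates it in common over genes, was 1.24. Marker lists went against the cortex label in replicate 2. Neuron-enriched miRNAs held 4.27% of counts in replicate 1 (15 of 15 genes detected) and 0.132% in replicate 2 (11 of 15, with the 3 Mir124a copies and Mir9-2 at 0). The Mir124a copies and Mir9-2 each had fewer than 10 counts summed over the libraries, so their detection carries little weight here. Reads placed at more than 1 site were given to no gene. Low counts of genes with near-identical copies therefore need not mean low levels, and the list shares cover the counted reads only. Muscle miRNAs held 0.00737% (4 of 10 detected, with the Mir1a and Mir133a copies, Mir208a and Mir208b at 0) and 15.7% (9 of 10, with Mir133a-2 at 0). Mir206 alone held 15.6% of counts in replicate 2, so that sum is largely 1 gene. The other lists, with every gene detected unless stated, held 0.0228% (4 of 5) and 1.91% for the Hox cluster, 1.71% and 4.70% for vascular miRNAs, 0.167% and 0.509% for liver and epithelium (10 of 11 in each), 0.732% and 0.136% for leukocytes and microglia, and 0.00453% and 0.0153% for red blood cells. Most leukocyte and microglia counts in replicate 1 were Mir342 (6156 and 616 CPM). Mir146 and Mir150 were also lower in replicate 2 in CPM, but Mir142, Mir155 and Mir223 were higher. In the liver and epithelium list, Mir122, Mir141, Mir203 and Mir205 were higher in replicate 2. Mir192, Mir194-2, Mir200a, Mir200b, Mir200c and Mir429 were lower. All ratios below are between libraries as labelled, and the part of these marker differences in them was not tested. In bulk RNA, fewer cells of a type and less RNA per cell cannot be told apart.

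The most abundant of the 7 genes in both libraries was Mir130a. On total counts, Mir148a and Mir152 were more than 10-fold higher in replicate 2. Mir148b, which carries the same seed, was at nearly the same total-count CPM in both libraries. With TMM, a scaling described below, Mir148b was also higher in replicate 2 (log2 ratio 1.40, 95% interval 1.13 to 1.67). One read is 1 small RNA of near equal length whatever the gene, so CPM were not divided by hairpin length. Ligation can favour some sequences, so levels of different miRNAs are compared as sequenced. All levels and intervals below are CPM on total own-strand counts with exact (Clopper-Pearson) 95% intervals, which cover counting error only.

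In the miR-148 family, Mir148a had 141 counts in replicate 1 (47.0 CPM, interval 39.6 to 55.4) and 1714 in replicate 2 (479 CPM, 457 to 502). Its level was 10.2-fold higher in replicate 2, and its mean of 263 ± 305 CPM (SD, n = 2) is smaller than its SD. Mir152 had 69 counts in replicate 1 (23.0 CPM, 17.9 to 29.1) and 1421 in replicate 2 (397 CPM, 377 to 418), a 17.3-fold higher level and a mean of 210 ± 265 CPM (SD, n = 2). Neither gene's intervals overlapped between the libraries. With TMM-scaled CPM, a scaling described below, the means were 404 CPM for Mir148a and 330 CPM for Mir152. Mir148b had 211 counts in replicate 1 (70.4 CPM, 61.2 to 80.5) and 251 in replicate 2 (70.2 CPM, 61.7 to 79.4), and its mean was 70.3 ± 0.145 CPM (SD, n = 2). Its intervals overlapped almost wholly. The ratio of replicate 2 to replicate 1 was 0.997, with a 95% interval of -0.27 to 0.27 on the log2 scale.

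The order of the family changed with the library. In replicate 1 Mir148b was first and Mir152 last, and in replicate 2 Mir148a was first and Mir148b last. No neighbours in either order had a ratio whose interval included 1, and the closest were Mir148a over Mir152 in replicate 2, at 1.21 (1.12 to 1.30). Among all 2202 genes Mir148a ranked 243 in replicate 1 and 115 in replicate 2, and Mir152 ranked 284 and 127. Mir148b ranked 225 in replicate 1 and 30 places higher in replicate 2.

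**Figure D1:**
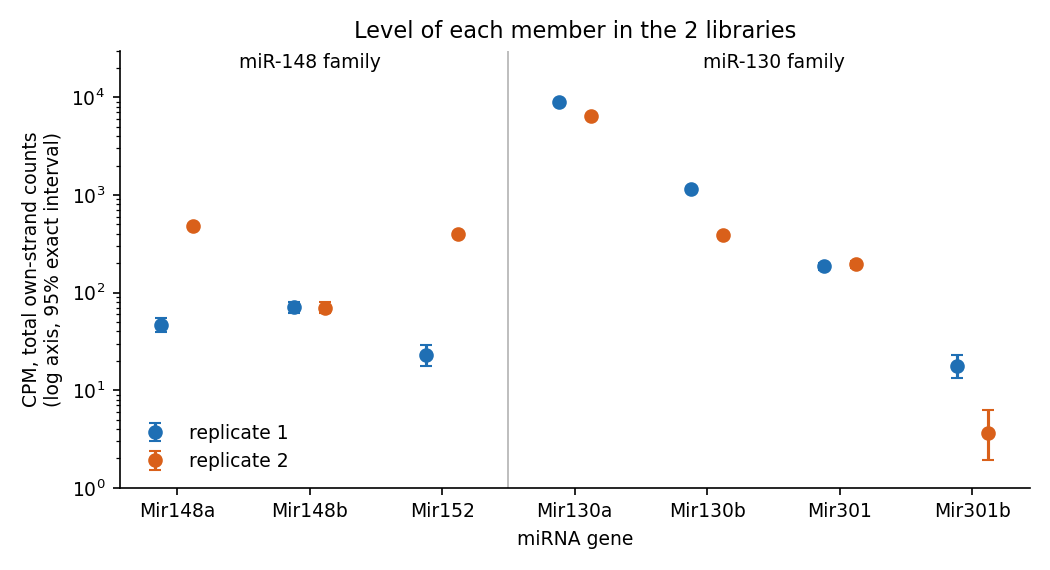
Level of each member in CPM on total own-strand counts (log axis), with exact 95% intervals for counting error, in the libraries labelled replicate 1 (blue) and replicate 2 (orange). Mir148a and Mir152 sit at 47.0 and 23.0 CPM in replicate 1 and at 479 and 397 CPM in replicate 2, while Mir148b and Mir301 have overlapping intervals.

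In the miR-130 family, Mir130a had 26599 counts in replicate 1 (8869 CPM, 8763 to 8976) and 23220 in replicate 2 (6489.7 CPM, 6407 to 6573). It ranked 27 and 29 among all genes, and its mean was 7679 ± 1683 CPM (SD, n = 2). Mir130b had 3490 counts in replicate 1 (1164 CPM, 1125 to 1203) and 1383 in replicate 2 (387 CPM, 366 to 407), a level 3.01-fold lower in replicate 2. Both genes were lower in replicate 2 in CPM, with intervals that did not overlap. Mir301 had 559 counts in replicate 1 (186 CPM, 171 to 202) and 697 in replicate 2 (194.8 CPM, 181 to 210), so its intervals overlapped. Its ratio of replicate 2 to replicate 1 was 1.05, with an interval of -0.10 to 0.23 on the log2 scale. Mir301b, the least abundant member, had 53 counts in replicate 1 (17.7 CPM, 13.2 to 23.1) and 13 in replicate 2 (3.63 CPM, 1.93 to 6.21), a level 4.86-fold lower in replicate 2 on few counts. Means were 775 ± 549.5 CPM for Mir130b, 191 ± 5.95 for Mir301 and 10.7 ± 9.93 for Mir301b (SD, n = 2). The order Mir130a, Mir130b, Mir301, Mir301b held in both libraries, and no neighbouring pair had a ratio whose interval included 1. The closest neighbours were Mir130b and Mir301 in replicate 2, at a ratio of 1.98 (1.81 to 2.18).

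Shares within a family do not depend on how the libraries are scaled against each other. Mir148b held 50.1% of the miR-148 family's counts in replicate 1 (exact 95% interval 45.2 to 55.0) and 7.41% in replicate 2 (6.55 to 8.35). Mir148a held 33.5% (29.0 to 38.2) in replicate 1 and 50.6% (48.9 to 52.3) in replicate 2. Mir152 held 16.4% (13.0 to 20.3) and 42.0% (40.3 to 43.7). None of the 3 genes had overlapping intervals. In the intron pair of the coatomer paralogs, Mir148b over Mir152 was 3.06 (2.32 to 4.07) in replicate 1 and 0.177 (0.154 to 0.202) in replicate 2, a 17.3-fold difference.

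Mir130a led the miR-130 family in both libraries, with 86.6% of family counts (86.3 to 87.0) in replicate 1 and 91.7% (91.4 to 92.1) in replicate 2. Mir130b held 11.4% (11.0 to 11.7) and 5.46% (5.19 to 5.75), and Mir301 held 1.82% (1.67 to 1.98) and 2.75% (2.56 to 2.96). Mir301b held 0.173% (0.129 to 0.226) and 0.0514% (0.0273 to 0.0878). The neighbours Mir130b and Mir301b were the 1 pair of 6 whose ratio had overlapping intervals, at 65.8 (50.2 to 88.1) in replicate 1 and 106 (62.0 to 200.3) in replicate 2. These intervals are wide because Mir301b had 53 and 13 counts. Mir301 over Mir301b, genes that do not neighbour each other, was 10.5 (7.95 to 14.3) and 53.6 (31.1 to 101). Mir130a over Mir301, also not neighbours, changed less than the neighbouring pair, from 47.6 to 33.3 (1.43-fold against 1.62-fold). All other pairs of the family changed by 2.20-fold or more.

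**Figure D2:**
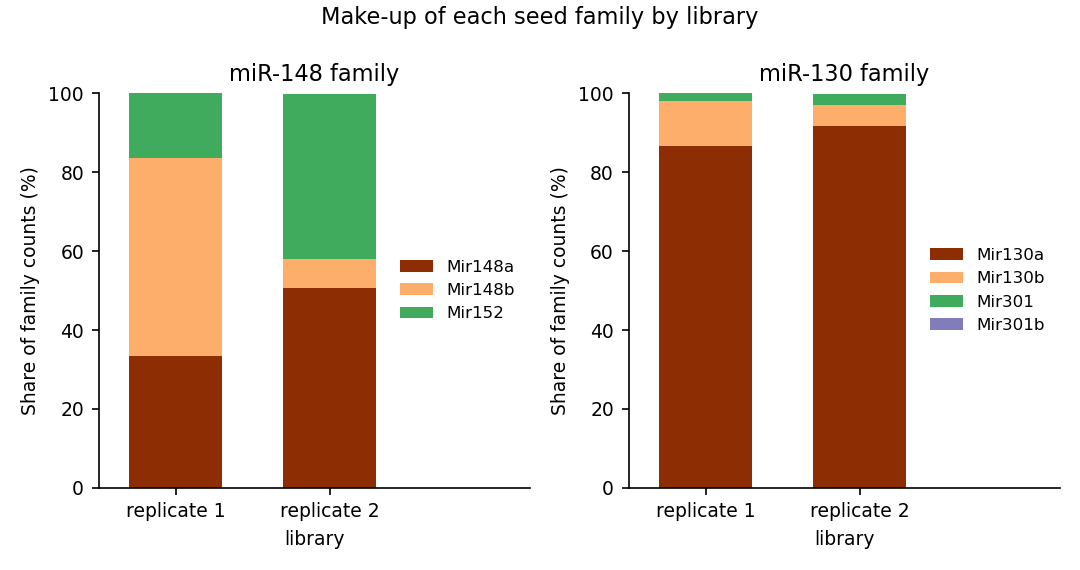
Share of each family's own-strand counts held by each member (percent, stacked to the family total) in the libraries labelled replicate 1 and replicate 2. Mir148b takes 50.1% of the miR-148 family in replicate 1 and 7.41% in replicate 2, while Mir130a takes 86.6% and 91.7% of the miR-130 family.

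As sums, the miR-148 family took 421 and 3386 counts (140 and 946 CPM), a 6.74-fold higher level in replicate 2. The miR-130 family sum was 30701 and 25313 counts (10237 and 7075 CPM). The miR-130 family exceeded the miR-148 family by 72.9-fold (66.2 to 80.5) in replicate 1 and by 7.48-fold (7.21 to 7.75) in replicate 2.

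The counts of each gene in replicates 1 and 2 were then compared by a two-sided exact binomial test against TMM-scaled library sizes, over all 463 genes with at least 10 counts summed (Benjamini-Hochberg adjusted over all of them, threshold 0.05). This test knows only counting error and sets library against library, not condition against condition. TMM, edgeR's trimmed mean of M-values, lies 1.40 above total counts on the log2 scale, and the middle tested gene had a log2 ratio of -0.26 under TMM and -1.35 under total counts. Of all tested genes 40.6% were called higher in replicate 2 with TMM and 39.3% lower, against 26.3% and 63.7% with total counts.

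With TMM 5 of the 7 members were higher in replicate 2, 1 (Mir130b) was lower and 1 (Mir301b) did not pass. With total counts 2 were higher (Mir148a and Mir152), 3 were lower (Mir130a, Mir130b and Mir301b), and Mir148b and Mir301 did not pass. Mir130a therefore turned direction with the scaling, and Mir148b and Mir301 were called with TMM and not with total counts. In either direction 79.9% of all tested genes passed with TMM and 90.1% with total counts, so 6 and 5 of 7 members called are near the background. At least 4-fold with TMM, 2 members were higher (Mir148a and Mir152) and 0 lower, beside 23.8% and 19.4% of all tested genes (43.2% in either direction).

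Without a prior, the log2 ratio of replicate 2 to replicate 1 for Mir152 was 4.11 with total counts (95% interval 3.76 to 4.48) and 5.51 with TMM (5.16 to 5.88). For Mir148a it was 3.35 (3.10 to 3.61) and 4.75 (4.50 to 5.01). Both stayed above 0 under either scaling. For Mir130a it was -0.45 with total counts (-0.48 to -0.43) and 0.95 with TMM (0.93 to 0.98). For Mir148b it was -0.0042 (-0.27 to 0.27) and 1.40 (1.13 to 1.67). For Mir301 it was 0.06 (-0.10 to 0.23) and 1.47 (1.30 to 1.63). For Mir130b it was -1.59 (-1.68 to -1.5) and -0.19 (-0.28 to -0.10), and the TMM call (adjusted p = 6.7e-05, binomial test) was lost with DESeq2 size factors (adjusted p = 0.44). For Mir301b it was -2.28 (-3.28 to -1.39) and -0.88 (-1.88 to 0.02), with an adjusted p of 0.058 by the binomial test with TMM.

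**Figure D3:**
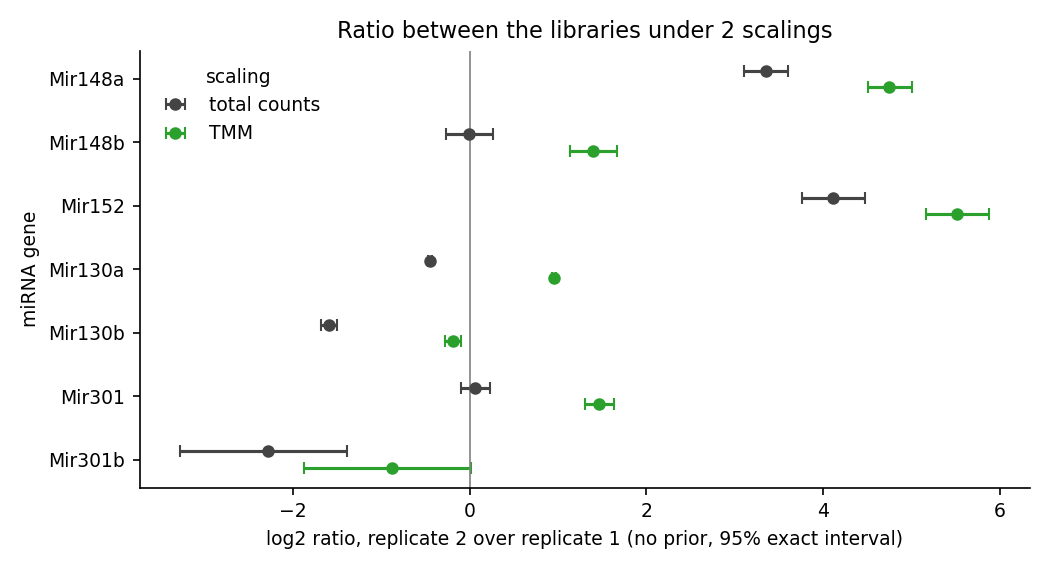
Log2 ratio of replicate 2 to replicate 1 for each member, with no prior and exact 95% intervals, under total counts (grey) and TMM (green). Mir148a and Mir152 lie above 0 under both scalings, and Mir130a lies at -0.45 and 0.95.

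By log2 ratio with a prior of 1 CPM, ranked from the highest in replicate 2, Mir152 was 23 and Mir148a 31 of 463 with TMM. Mir301 ranked 129, Mir148b 133 and Mir130a 160. Mir130b ranked 229, next to the middle, and Mir301b 283. With total counts the ranks were 23, 30, 131, 137, 167, 252 and 292 in the same order of genes. Relative to the median tested gene, the log2 ratio was 5.67 (TMM) and 5.40 (total counts) for Mir152, and 4.96 and 4.67 for Mir148a. It was 1.63 and 1.35 for Mir148b, 1.71 and 1.42 for Mir301, and 1.21 and 0.90 for Mir130a. The genes in the 2610318N02Rik intron lay nearest to or below the median gene, at 0.07 and -0.23 for Mir130b and -0.52 and -0.66 for Mir301b.

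**Figure D4:**
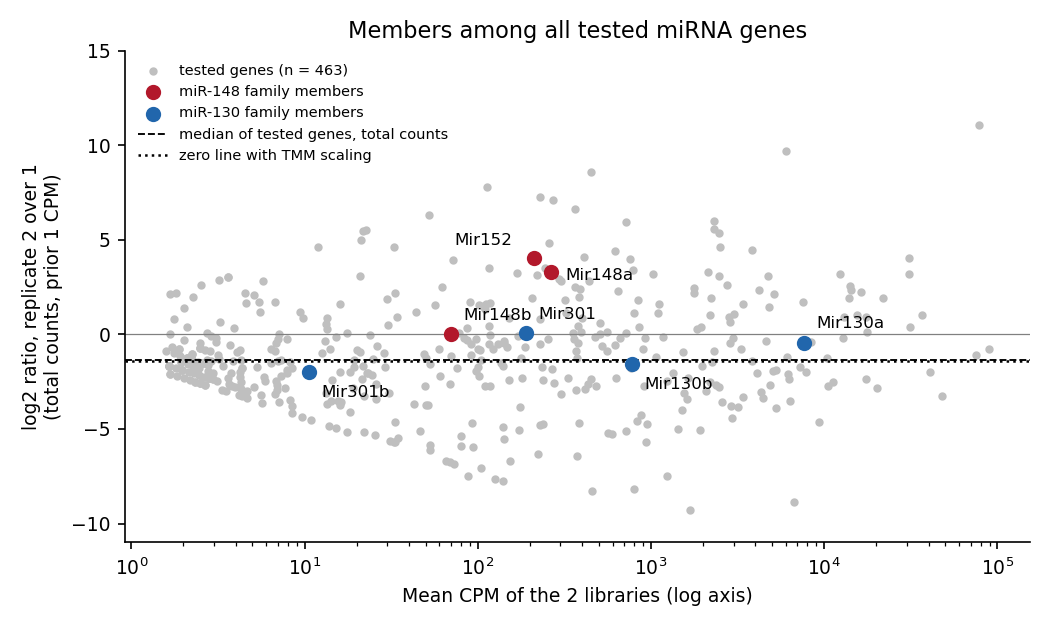
Mean CPM (log axis) against the log2 ratio of replicate 2 to replicate 1 (total counts, prior 1 CPM) for the 463 tested genes (grey), with the miR-148 family members in red and the miR-130 family members in blue. The dashed line is the median of tested genes (-1.35) and the dotted line is where TMM puts zero; Mir152 and Mir148a lie far above both, and Mir130b lies close to them.

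Among 181 other genes with at least 1000 counts summed, those nearest to Mir148a in log2(CPM + 1) over the 2 libraries were Mir27a (43.7 and 398 CPM, distance 0.29), Mir377 (38.0 and 449, distance 0.31) and Mir494 (66.4 and 521, distance 0.50). Nearest to Mir130a were Mir433 (9416 and 7258 CPM, distance 0.18), Mir652 (14610 and 6059, distance 0.73) and Mir191 (8433 and 3726, distance 0.80). With 2 libraries this is a likeness of level and not of a pattern.

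Other broadly expressed seed families were set beside these for the change in their make-up, taken as the percentage points of family counts that would have to move between members. It was 42.7 points for the miR-148 family and 6.03 for the miR-130 family, against 22.2 for the miR-15 family (Mir15a, Mir15b, Mir16-1, Mir16-2, Mir195a and Mir497, with Mir195b at 0), 6.48 for the miR-103 family (Mir103-1, Mir103-2 and Mir107) and 1.51 for the miR-26 family (Mir26a-1, Mir26a-2 and Mir26b). As sums on total counts, the miR-26 family was 1.85-fold higher in replicate 2 and the miR-15 family had a ratio of 0.869. The miR-103 family sum had a ratio of 0.0999, and Mir107 had 8887 and 990.0 of its counts. No test was made of these differences between families. Mir103, Mir26a and Mir16 have copies with the same mature sequence, whose reads can be placed at several sites and lost from these counts. In replicates 1 and 2, Mir26b held 98.3% and 99.8% of its family's counts and Mir107 held 98.7% and 92.3%. Loss of the copies can hold the measure low, so the comparison with these families is weak. For the 7 members the longest exact run shared with another of the 1004 miRNA hairpins compared was 12 to 17 nt (17 between Mir130a and Mir6389). That is shorter than a mature miRNA, but placement with mismatches or elsewhere in the genome was not checked.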

How the data were processed

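The authors deposited raw read counts per miRNA gene, 1 table per library, made on mm10 with GENCODE M21, per the deposited text files. Their aligner and counter were not given in the sources used here. Of the 3 count columns (either strand, own strand, opposite strand, read from their layout) the own-strand one was used. The 4 entries without a gene stayed out: unplaced (18.4% and 6.11% of reads), placed at several sites (46.1% and 39.8%), outside miRNA genes (5.55% and 1.47%) and ambiguous (0). All 2202 identifiers matched GENCODE M21, and all 7 hairpins and 6 mature 3′ arms of the members matched the RefSeq table. Counts are per hairpin, so arms are not separated.

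Library sizes of 2999032 and 3577964 counts make 1 read worth 0.333 and 0.279 CPM. With 1 library on each side the quasi-likelihood test of edgeR has no residual degrees of freedom, so the binomial test compared the libraries, with TMM factors of 1.63 and 0.615. No exact permutation test was run, since with 2 libraries its smallest p is 0.5. Alternatives were DESeq2 size factors, total counts, unstranded counts, filters of 1 and 100 counts, a prior of 0.1 CPM, a negative binomial test with a coefficient of variation of 0.1, and removal of the most abundant gene (Mirlet7i). Added after seeing the data were removal of Mir206 and a 4-fold minimum. The test was tried on simulated data that held counting error only, so that trial does not cover the spread between these libraries.

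The members, lists and tests were chosen with earlier results of these data known. Named genes are the members, genes that share a seed, miRNA genes within 10 kb, the 3 nearest genes in level per family and 3 comparison families (Mir497a is named Mir497 in GENCODE M21, and likewise Mir146a is Mir146); Mir206 and single markers are named for the lists. Tests ran in scipy 1.17.1 (Python 3.11.15, pandas 2.3.3), scaling in edgeR 4.0.16 and DESeq2 1.42.0 (R 4.3.3), and figures in matplotlib 3.10.9.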

Additional observations from a re-analysis of the deposited data

Results flagged for a closer look

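Reads on the strand opposite to a gene were outside the main measurement. Mir130a had 7 of them in replicate 1, more than the 3 that a zero count allows, beside 26599 on its own strand (0.0263% of both). It had 2 in replicate 2, Mir152 had 0 and 2, and the other 5 members had 0 in both libraries.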

How the results depend on the processing

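No paired analysis was possible because the labels give 1 group, and leaving out a library leaves no comparison between libraries. With total counts in place of TMM the log2 ratio (prior 1 CPM) was -0.45 for Mir130a, -0.0041 for Mir148b and -0.53 for the miR-130 family sum, each above 0 with TMM; without the prior, TMM places every log2 ratio 1.40 higher than total counts do. Requiring a 4-fold difference left 200 of 370 genes and 2 of 6 members. TMM-scaled CPM moved the mean levels of Mir148a (from 263 to 404 CPM) and Mir152 (from 210 to 330 CPM) by more than 1.5 times, but by less than their SD. The mean levels of Mir148b and Mir301 moved by more than their SD, which is small because the libraries were close. For Mir148b (main value 70.3 CPM) they were 77.1 with unstranded counts, 78.7 with TMM-scaled CPM, 77.2 without Mirlet7i and 76.8 without Mir206. For Mir301 (191 CPM) they were 209.3, 216, 209.2 and 209 in the same order. The Mir130b call was also lost with unstranded counts (adjusted p = 0.60, binomial test) and with the negative binomial test (adjusted p = 0.42, edgeR). Mir148b, Mir301 and Mir130b had the same counts unstranded as on their own strand. With unstranded counts, therefore, only the library totals and scaling changed for them. Mir148a and Mir152 were called higher under every alternative run. No test run allowed for the spread seen between the libraries. The widest took a coefficient of variation of 0.1, against the 1.24 that edgeR estimated, so these calls do not address that spread. Depth limits Mir301b most, at 53 and 13 counts.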
